A study of Cucumis sativus with 4 samples.

Results

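The genes described here are 48 cucumber (Cucumis sativus) genes that carry an Arabidopsis homologue ID but no gene symbol in the deposited expression table, that reached at least 20 RPKM (reads per kilobase of gene length, scaled to the depth of the library) in both leaf libraries and that stayed at or below 0.5 RPKM in both root libraries. They were 48 of 18665 genes in the table, and 48 of the 1819 unnamed genes with a homologue that reached 20 RPKM in both leaf libraries. The same limits were also met by 48 genes with a symbol and by 7 genes without symbol or homologue. Because leaf and root levels chose the genes, the organ difference is given below as a description, and only what the limits did not use is compared.

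The study grew cucumber in pots of sand under 14 h of light, fed the plants 1 of 2 nutrient solutions and sequenced RNA from 0.1 g of leaf or root per library, at an age of 28 days from sowing. Low nitrogen plants received 1 mM nitrate and control plants 5 mM. The 4 groups were leaf low nitrogen, leaf control, root low nitrogen and root control, with 1 library each. Differences between libraries therefore could not be checked against replicates, and neither p-values nor standard errors appear. The low nitrogen recipe also held more sulfate and chloride salts, so nitrate supply and these ions cannot be told apart. The labels gave neither a cultivar or genotype, nor how long each solution was fed, nor how many plants went into a library.

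Leaves and roots differ in the genes that build chloroplasts, the cuticle and the leaf's own chemistry. Genes of the first kind encode proteins that fold, assemble and protect the photosynthetic membranes. Others belong to large families, such as glutaredoxins, short-chain dehydrogenases, acyltransferases, lipid transfer proteins and GDSL lipases, in which single copies are often used in 1 organ. The roles given below are those of the Arabidopsis homologue, from general knowledge. The table itself gives the homologue ID alone, and the function of the cucumber genes was not measured. Role groups rest on the same knowledge and were not fixed in advance. Each gene is counted in 1 group, although some would fit another.

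The depth recovered from the values was 2.74 M (mega) reads for leaf low nitrogen, 2.93 M for leaf control, 3.98 M for root low nitrogen and 4.23 M for root control. The organ labels were checked against 13 lists of 207 homologues. Light-harvesting antenna genes summed to 52713 RPKM in low nitrogen leaf and 110080 in control leaf, against 163.7 in low nitrogen root and 132.8 in control root. Root cell type genes summed to 8.1 and 4.7 RPKM in low nitrogen and control leaf, against 57.8 and 68.4 RPKM in low nitrogen and control root. Every list except the root cell types summed higher in leaf than in root. Leaf polarity differed least by ratio, with 183.9 and 126.1 RPKM in low nitrogen and control leaf against 75.8 and 90.8 in root. Some genes of leaf lists were higher in root. In the same order, the stomatal list's AT3G06120 homologue was at 5.74 and 0.6 RPKM in leaf and 38.19 and 11.97 in root. Cucsa.048220 (AT2G34710, polarity list) was at 11.46 and 3.98 in leaf and 31.61 and 38.31 in root. Of the 17 antenna genes, 3 were at 0 in both roots. Whether RNA of green tissue contributed to the root libraries was not tested.

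The 48 genes together made up 0.635% of the RPKM sum in low nitrogen leaf and 0.622% in control leaf. Their summed level was 4709 and 4794 RPKM in these libraries, against 2.74 RPKM in low nitrogen root and 1.47 RPKM in control root. In both roots 35 of the 48 were listed at 0. Another 6 had a value above 0 in low nitrogen root alone, 5 in control root alone and 2 in both. The highest root value was 0.46 RPKM in low nitrogen and 0.28 RPKM in control. Both roots had a value for the homologues of AT1G29670 (0.37 RPKM in low nitrogen and 0.17 in control) and AT3G48420 (0.21 and 0.20). Low nitrogen root alone had a value for those of AT1G64500 (0.46), AT1G13360 (0.46), AT5G19730 (0.43), AT5G41761 (0.42), AT1G65230 (0.21) and 1 homologue of AT3G26040 (0.18). Control root alone had a value for those of AT2G04570 (0.28), AT5G05270 (0.26), AT1G75900 (0.24), AT4G15920 (0.20) and AT2G35920 (0.12). All 3 GDSL lipases of the 48 (AT1G29670, AT1G75900 and AT2G04570) were among these 13 genes. For the homologue of AT5G41761 no whole reads could be recovered. For the others, no more than 2 reads lay behind any of these root values at the lengths used to recover reads. Except for the homologue of AT1G75900, the length used was the shortest giving whole reads, so the true counts may be higher.

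Gene length bears on what a root value of 0 means. A single read amounted to 0.5 RPKM for a gene of 503 bases in low nitrogen root and of 473 bases in control root, so shorter genes could pass the root limit only with no read at all. Of the 48 genes, 9 were under 500 bases long, or 18.8%, against 2.93% of the 3555 other genes with at least 20 RPKM in both leaves, and all 9 were at 0 in both roots. The median deposited length was 1469.5 bases for the 48 and 3030.0 for the others. Reads came out whole at the deposited length for 8 genes, and a count of 0 allows up to 3 reads. For those of the 8 at 0 in the library, that limit ranged between 0.383 and 2.54 RPKM in low nitrogen root. In control root it ranged between 0.419 and 2.39 RPKM. For 38 genes reads were taken at the shortest length that gave whole numbers. The same limit at that length, for those at 0 in the library, ranged between 0.314 and 6.04 RPKM in low nitrogen root. In control root it ranged between 0.514 and 5.68 RPKM. For these 38 the deposited length need not be the one behind the RPKM, and the shares by length above use the deposited length. In bulk tissue, fewer cells of a type and less RNA per cell cannot be told apart.

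Just inside the leaf limit were the homologues of AT4G21530 (43.2 RPKM in low nitrogen leaf and 20.2 in control leaf), AT5G51720 (20.4 and 22.2) and AT4G15920 (20.5 and 45.3). Just outside it were those of AT5G33370 (19.2 and 24.8 RPKM), AT2G38740 (38.9 and 19.1) and AT1G51100 (37.0 and 17.6). At the root limit, AT1G64500 and AT1G13360 (each 0.46 RPKM in low nitrogen root and 0 in control root) and AT5G19730 (0.43 and 0) lay inside, and AT5G53490 (0.27 and 0.51), AT5G17670 (0.54 and 0.51) and AT3G50940 (0.63 and 0.39) outside.

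The highest of the 48 genes did not belong to a single kind of protein. The major latex protein homologue of AT5G28010 (Cucsa.375440, scaffold03746) stood at 516 RPKM in low nitrogen leaf and 315 in control leaf, ranks 172 and 250 of all genes. Major latex proteins are small proteins of the Bet v 1 fold that bind hydrophobic ligands. The aldo-keto reductase homologue of AT5G62420 (Cucsa.122280, scaffold00999) was at 479 and 475.5 RPKM. The homologue of AT1G10657 (Cucsa.394320, scaffold04100), for which no role is given here, was at 394 and 306 RPKM. These 3 were the genes above 300 RPKM in both leaves, and each was at 0 in both roots. In all, 10 genes exceeded 100 RPKM in both leaves.

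**Figure D1:**
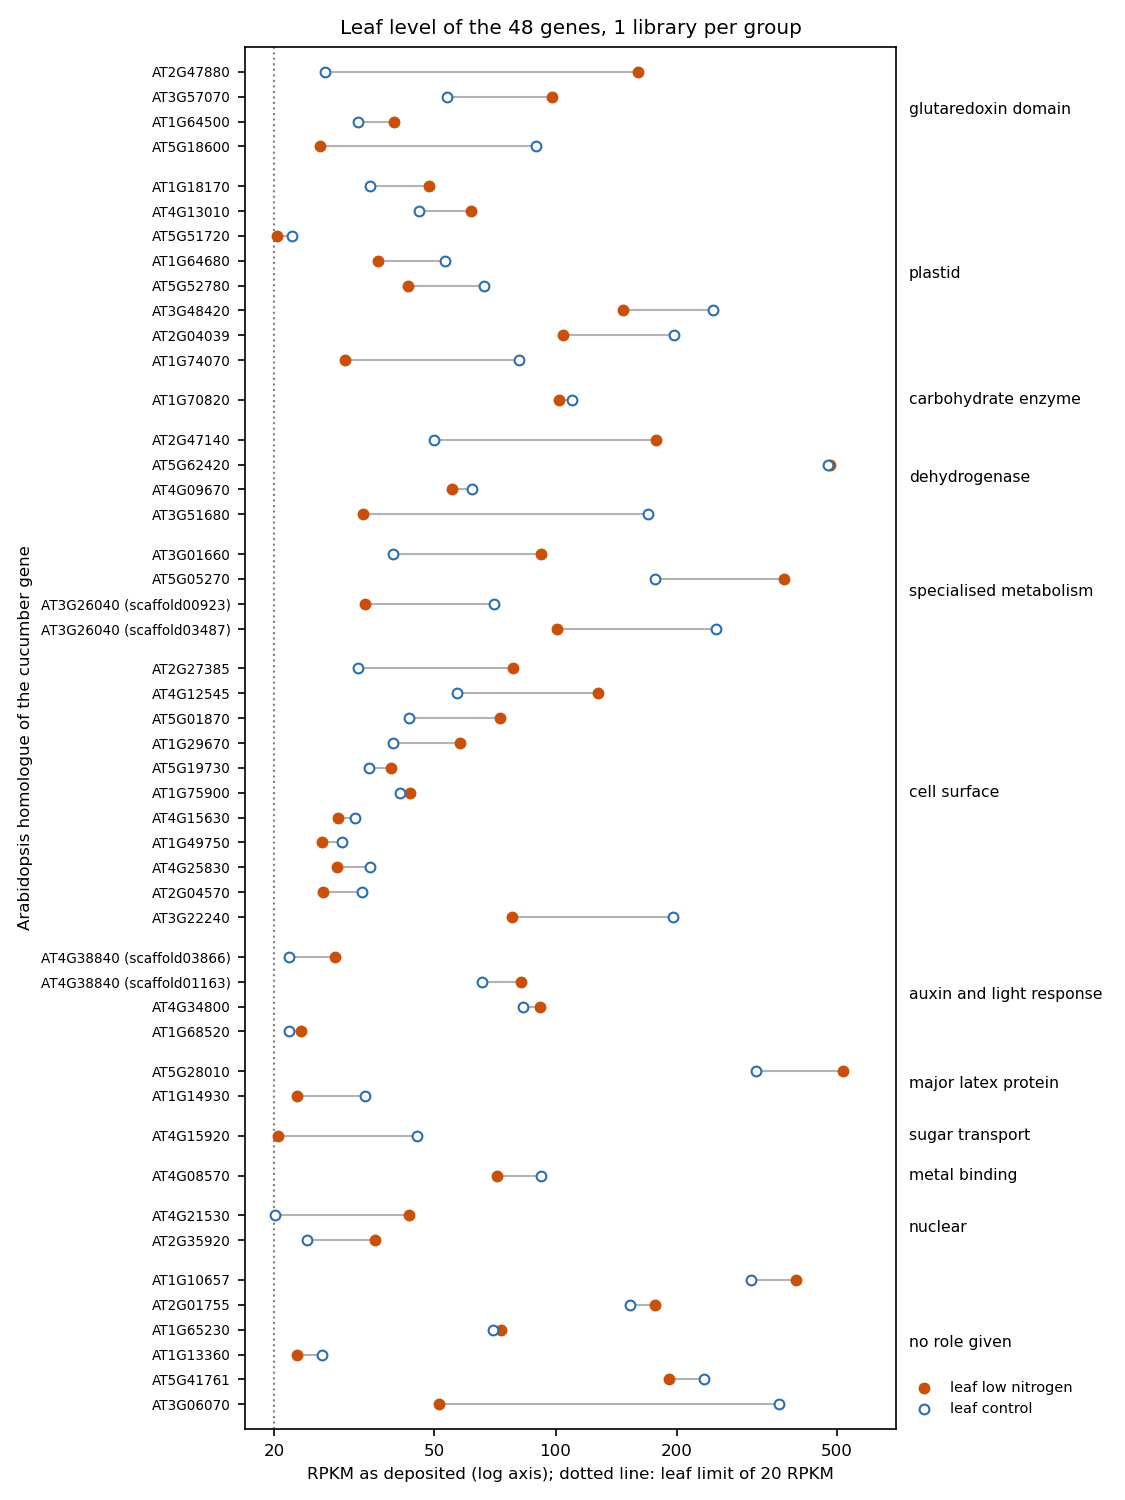
RPKM of the 48 genes in the low nitrogen leaf library (filled) and the control leaf library (open) on a log axis, with 1 row per gene, named by Arabidopsis homologue and grouped by the homologue's role. The longest lines are those of AT3G06070 (51.3 and 359.5 RPKM in low nitrogen and control leaf) and AT2G47880 (159.8 and 26.8 RPKM).

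The question put to the leaf libraries was which of these genes differed between low nitrogen and control leaf. Of the 48, 7 were higher and 8 lower in low nitrogen leaf by a log2 ratio of at least 1, computed as log2((low nitrogen + 1)/(control + 1)) of the RPKM, and 33 passed neither limit. The most different were the glutaredoxin homologue of AT2G47880, higher with a log2 ratio of 2.53, and the homologue of AT3G06070, lower with a log2 ratio of -2.78. Among the 13384 genes averaging 1 RPKM or more in leaf, 13.6% were higher and 3.59% lower. Among the 3603 genes with at least 20 RPKM in both leaves, which could have met the leaf limit, 7.52% were higher and 3.36% lower. The shares among the 48 were 14.6% and 16.7%.

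The median log2 ratio of the 48 genes was 0.04, with 25 above 0, against 0.33 for all genes compared and 0.20 for the genes at 20 RPKM or more in both leaves. Relative to the median of all genes it was therefore -0.29. Under that centring 2 of the 48 were higher and 10 lower, and with upper quartile scaling the counts were the same, 2 and 10. The shares of all genes given above are as deposited and were not recounted on these scales, so they are no background for these counts. The homologues of AT2G47880 and AT2G47140 were the 2 genes higher as deposited and under all 4 other scalings. For 7 of the 8 lower genes the call held under all of them, the exception being the scaffold00923 homologue of AT3G26040 with equal RPKM sums. The 48 genes with a symbol under the same limits had 3 higher, 13 lower and a median log2 ratio of -0.59. The unnamed genes with a homologue, at least 20 RPKM in both leaves and a root value above 0.5 RPKM numbered 1771, with 6.38% higher, 1.81% lower and a median of 0.22. With 1 library per group these shares and medians were not tested against each other.

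**Figure D2:**
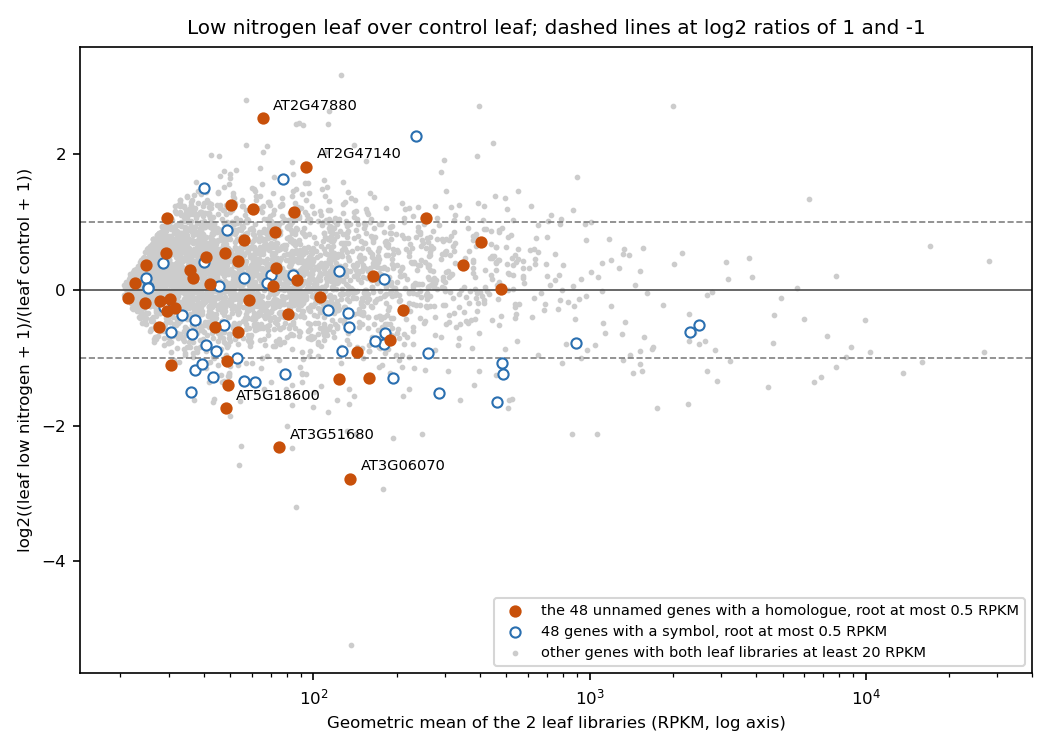
The log2 ratio of low nitrogen over control leaf (with 1 RPKM added to each value) against the geometric mean of the 2 leaf libraries (RPKM, log axis), for the 48 genes (filled), the 48 genes with a symbol under the same limits (open) and the other genes with at least 20 RPKM in both leaves (grey). Of the filled points, 7 lie at or above the upper dashed line and 8 at or below the lower.

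Counting error was smaller than most of these differences. Whole reads could be recovered for 14 of the 15 genes past the limit, and the 95% counting interval of the ratio excluded 1 for 13 of them. The exception was the homologue of AT4G21530, a short gene. Since a large observed ratio was the condition of choice, an interval that excludes 1 adds little. Some intervals reached below 2-fold, such as that of AT4G12545 (1.32 to 3.91), and others did not, such as that of AT2G47880 (3.87 to 9.52). Intervals cover counting error only, and plant-to-plant variation is not in them.

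Proteins with a glutaredoxin domain gave 4 of the 48 genes, and 2 of these were CC-type glutaredoxins, a class of small redox proteins. The homologue of AT2G47880 (Cucsa.239210, scaffold02046) was at 159.8 RPKM in low nitrogen leaf and 26.8 RPKM in control leaf, and at 0 in both roots. That is 5.96 times as much in low nitrogen leaf (counting interval 3.87 to 9.52, 139 and 25 reads). In Arabidopsis this locus encodes CEPD2, a CC-type glutaredoxin made in the shoot that travels to the root and signals the plant's demand for nitrogen. Whether the cucumber gene has this function is not addressed by these libraries.

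A second CC-type glutaredoxin went the other way. The homologue of AT5G18600 on scaffold02229 (Cucsa.253440) was at 26.0 RPKM in low nitrogen leaf and 89.4 RPKM in control leaf, 3.44-fold lower (counting interval 2.12 to 5.78, 22 and 81 reads). Another homologue of AT5G18600, on scaffold01196 (Cucsa.172120), is not among the 48, having 2.44 RPKM in low nitrogen root and 4.59 RPKM in control root. In leaf it was at 13.0 RPKM in low nitrogen and 72.8 RPKM in control, 5.60-fold lower. Both copies of AT5G18600 thus stood lower in low nitrogen leaf, and copies of a family may share reads. The other genes with a glutaredoxin domain were the homologues of AT3G57070 (Cucsa.018220, 97.9 RPKM in low nitrogen leaf and 53.6 in control leaf) and AT1G64500 (Cucsa.304020, 39.7 and 32.3). Neither passed the log2 limit.

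The CC-type family is found in land plants, and 14 cucumber genes in the table had 1 of its 21 Arabidopsis homologue IDs. This list was drawn up after the values were seen. Of the 9 averaging 1 RPKM or more in leaf, 2 were higher and 3 lower in low nitrogen leaf, with a median log2 ratio of 0.07, against 13.6% and 3.59% of all genes. Of the 8 compared in root, 4 were higher and 1 lower in low nitrogen root. The shares of all 14532 genes compared in root were 6.17% higher and 4.34% lower. The 4 include Cucsa.172110, 378 bases long, at 3.33 RPKM in low nitrogen root and 0 in control root. The homologue of AT2G30540 (Cucsa.025230) was at 157 RPKM in low nitrogen leaf and 115.5 in control leaf, and at 34.9 RPKM in low nitrogen root and 5.63 in control root. The family's genes therefore had no common direction in leaf.

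**Figure D3:**
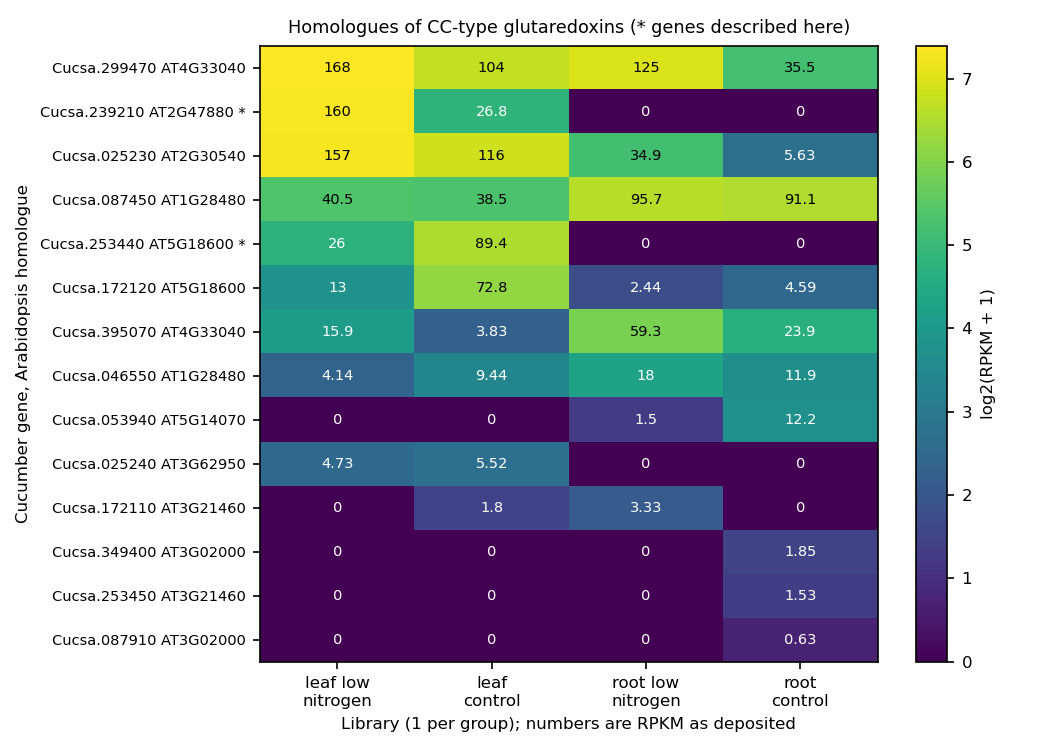
RPKM as deposited of the 14 homologues of CC-type glutaredoxins in the 4 libraries, coloured by log2(RPKM + 1), with the 2 genes of the 48 marked by an asterisk. Cucsa.239210 reads 159.8 and 26.8 RPKM in low nitrogen and control leaf, and Cucsa.253440 reads 26.0 and 89.4, both with 0 in the roots.

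Homologues of plastid proteins were 8 of the 48, and 6 of these had a negative log2 ratio in low nitrogen leaf, with a median of -0.58. Over all genes compared the median was 0.33, with 3998 of 13384 below 0. With the values as deposited, 0 of the 8 were higher and 1 lower by the log2 limit. The shares over all genes compared were 13.6% and 3.59%. The lower gene was the homologue of AT1G74070 (Cucsa.113610, scaffold00953), a cyclophilin-type prolyl isomerase of the thylakoid lumen, at 29.96 RPKM in low nitrogen leaf and 81.0 RPKM in control leaf, 2.70-fold lower. No whole reads could be recovered for it, so it has no interval.

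The homologue of AT2G04039 (Cucsa.282620), which in Arabidopsis is the NdhV subunit of the plastid NADH dehydrogenase-like complex, was at 104 RPKM in low nitrogen leaf and 197 RPKM in control leaf, 1.89-fold lower (counting interval 1.48 to 2.43). The homologue of AT3G48420 (Cucsa.196240), a chloroplast sugar-phosphate phosphatase of the CbbY type, was at 147 and 246 RPKM in low nitrogen and control leaf, 1.67-fold lower (interval 1.49 to 1.88). These 2 genes passed the log2 limit once ratios were centred on the median of all genes, at -1.25 and -1.07. The homologue of AT5G52780 (Cucsa.386710), a relative of the photosystem II assembly factor PAM68, was at 43.0 and 66.5 RPKM. The homologue of AT1G64680 (Cucsa.322570), of the DWARF27 carotenoid isomerase family, was at 36.25 and 53.3 RPKM. The iron-sulfur NEET protein homologue of AT5G51720 (Cucsa.115610) was at 20.4 and 22.2 RPKM.

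Only 2 of the 8 had a higher value in low nitrogen than in control leaf. They were the lumen FKBP-type prolyl isomerase homologue of AT1G18170 (Cucsa.121870, 48.6 and 34.6 RPKM) and the envelope quinone oxidoreductase homologue of AT4G13010 (Cucsa.078060, 61.7 and 45.7 RPKM), and neither passed the limit. Grouped apart as a carbohydrate enzyme, the phosphoglucomutase family homologue of AT1G70820 (Cucsa.009150) was at 102 RPKM in low nitrogen leaf and 109.8 in control leaf.

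None of the 48 genes had a homologue on the 13 lists of photosynthesis, cuticle, stomata, polarity and root genes. The lists are not complete, so this does not mean that such genes were absent from the 48. The NDH list lacks AT2G04039, and the thylakoid accessory list lacks the lumen isomerases AT1G74070 and AT1G18170. The lists give the wider setting of these plastid genes. Of 17 NDH complex genes compared in leaf, 1 was higher and 2 lower in low nitrogen leaf, with a median log2 ratio of 0.10, and 5 were at 0 in both roots. Of 19 thylakoid accessory genes, 1 was higher and 3 lower, with a median of -0.32. The antenna list had 0 of 17 higher and 11 lower (median -1.20), photosystem I 0 of 9 and 3 (-0.87), photosystem II 0 of 13 and 5 (-0.82), and the Calvin cycle 0 of 18 and 4 (-0.58). Photorespiration had 1 higher and 6 lower of 17 (-0.69), chlorophyll synthesis 0 and 1 of 8 (-0.57), and electron transport with the ATP synthase 0 and 3 of 15 (-0.43). The median of all genes compared was 0.33, and 13.6% of them were higher and 3.59% lower.

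Lists of the leaf surface and leaf form had positive medians as deposited. Cuticle and epidermis genes had 5 higher and 1 lower of 22 compared (median log2 ratio 0.75), leaf polarity genes 3 higher and 0 lower of 9 (0.75), and stomatal genes 2 higher and 0 lower of 13 (0.18), beside 13.6% higher and 3.59% lower of all genes compared. Relative to the median of all genes, the stomatal median was -0.15 and that of the NDH list -0.23. The single root cell type gene compared in leaf had a log2 ratio of 0.55 and passed neither limit.

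Counted as dehydrogenases and reductases that use NAD(P) were 4 of the 48. Of these 1 was higher and 1 lower, beside 13.6% and 3.59% of all genes compared. The quinone oxidoreductase homologue of AT4G13010 was counted with the plastid proteins instead. The short-chain dehydrogenase homologue of AT2G47140 (Cucsa.128520, scaffold01024) was at 178 RPKM in low nitrogen leaf and 49.8 RPKM in control leaf, 3.57-fold higher (counting interval 2.83 to 4.54). A homologue of AT3G51680 (Cucsa.319670, scaffold03078), of the same enzyme family, was at 33.3 and 169.9 RPKM in low nitrogen and control leaf, 5.10-fold lower (interval 3.82 to 6.91, 56 and 306 reads). The aldo-keto reductase AT5G62420 described above had a log2 ratio of 0.01, and the oxidoreductase homologue of AT4G09670 (Cucsa.108680) was at 55.4 and 61.9 RPKM.

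Grouped under specialised metabolism were 4 of the 48, and each passed the limit with the values as deposited. Among all genes compared, 13.6% were higher and 3.59% lower, and the group of 4 was not tested against them. Both homologues of AT3G26040, a BAHD acyltransferase of the family that joins acyl groups to alcohols and amines, were lower in low nitrogen leaf. The one on scaffold03487 (Cucsa.349070) was at 101 RPKM in low nitrogen leaf and 249 RPKM in control leaf, 2.48-fold lower (counting interval 2.21 to 2.79). The one on scaffold00923 (Cucsa.097800) was at 33.7 and 70.5 RPKM, 2.09-fold lower (interval 1.69 to 2.60). Higher were the homologue of AT5G05270 (Cucsa.143940), a chalcone isomerase-like protein that aids flavonoid synthesis, and a methyltransferase homologue of AT3G01660 (Cucsa.156150). The levels in low nitrogen and control leaf were 369 and 176 RPKM for AT5G05270 and 91.8 and 39.6 RPKM for AT3G01660. Neither of these higher genes passed the limit when ratios were centred, at log2 ratios of 0.73 and 0.86.

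Proteins of the cell surface, wall and cuticle were 11 of the 48. Of these 2 were higher, 1 lower and 8 past neither limit, with a median log2 ratio of 0.09. All genes compared had 13.6% higher, 3.59% lower and a median of 0.33. The lipid transfer protein homologue of AT4G12545 (Cucsa.320750) was at 127 RPKM in low nitrogen leaf and 56.8 RPKM in control leaf, and an Ole e 1-like wall protein homologue of AT2G27385 (Cucsa.185750) was at 78.3 and 32.4 RPKM. Centred on the median of all genes, their log2 ratios were 0.82 and 0.92, short of the limit. The lower gene was the homologue of AT3G22240 (Cucsa.239620), a small cysteine-rich transmembrane protein, at 77.9 and 195.7 RPKM, 2.51-fold lower (counting interval 1.70 to 3.80).

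The other 8 surface genes lay between log2 ratios of -0.31 and 0.74. A second lipid transfer protein, the homologue of AT5G01870 (Cucsa.130510), was at 73.0 RPKM in low nitrogen leaf and 43.4 RPKM in control leaf. GDSL lipases, a family of esterases that includes cutin-forming enzymes, gave 3 genes. The homologue of AT1G29670 (Cucsa.212710) was at 57.8 and 39.4 RPKM, that of AT1G75900 (Cucsa.393990) at 43.6 and 41.0, and that of AT2G04570 (Cucsa.185150) at 26.5 and 33.1. The pectinesterase homologue of AT5G19730 (Cucsa.128610) was at 39.1 and 34.5 RPKM. Relatives of Casparian strip membrane proteins gave 2 genes, the homologue of AT4G15630 (Cucsa.253540) with 28.9 and 31.9 RPKM and that of AT4G25830 (Cucsa.089750) with 28.7 and 34.7. The leucine-rich repeat protein homologue of AT1G49750 (Cucsa.219650) was at 26.3 and 29.4 RPKM.

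SAUR proteins, small products of genes that auxin induces rapidly, gave 3 of the 48 genes, and none of these passed the limit. On scaffold01163 the homologue of AT4G34800 (Cucsa.169400) was at 91.7 RPKM in low nitrogen leaf and 83.1 RPKM in control leaf, and a homologue of AT4G38840 (Cucsa.169440) at 82.3 and 65.7. On scaffold03866 another homologue of AT4G38840 (Cucsa.382040) was at 28.3 and 21.8 RPKM. Each was at 0 in both roots. The 2 genes on scaffold01163 stood 2 rows apart in the table, in a run of SAUR homologues.

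In all, 27 genes of the table had a homologue on a list of 24 SAUR loci that was drawn up after the values were seen. On scaffold01163 there were 16 of them and on scaffold03866 8. On scaffold01163, 7 of the 16 reached 20 RPKM in both leaves and 1 did so in both roots. That root gene, a homologue of AT5G18080 (Cucsa.169540), was at 7.79 RPKM in low nitrogen leaf and 7.27 in control leaf, against 58.1 in low nitrogen root and 108.8 in control root. A further homologue of AT4G38840 on that scaffold (Cucsa.169420), listed between the 2 genes of the 48, was at 54.7 and 71.9 RPKM in low nitrogen and control leaf and missed the root limit with 0.86 and 1.61 RPKM in low nitrogen and control root. Of the 19 SAUR genes averaging 1 RPKM or more in leaf, 1 was higher and 0 lower in low nitrogen leaf. Among all genes compared the shares were 13.6% and 3.59%. The median log2 ratio of the 19 was 0.24. The higher gene, Cucsa.382000, is 271 bases long and was at 4.05 RPKM in low nitrogen leaf and 0 in control leaf.

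**Figure D4:**
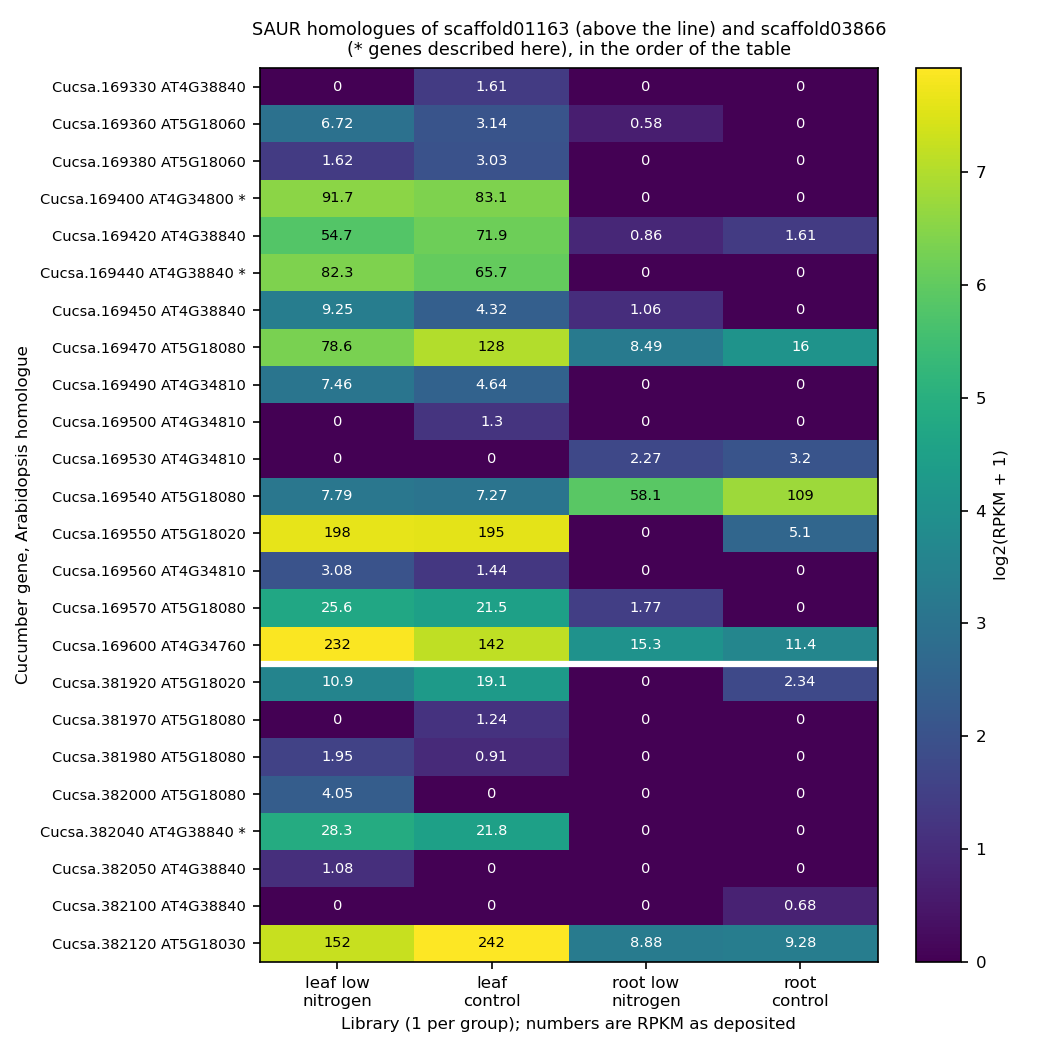
RPKM as deposited of the SAUR homologues on scaffold01163 (16 genes) and scaffold03866 (8 genes) in the 4 libraries, coloured by log2(RPKM + 1), in the order of the table, with the 3 genes of the 48 marked by an asterisk. Cucsa.169540 is the gene with more than 20 RPKM in both roots, at 58.1 RPKM in low nitrogen root and 108.8 in control root.

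The other regulators and carriers were few. The CONSTANS-like B-box factor homologue of AT1G68520 (Cucsa.365300) was at 23.4 RPKM in low nitrogen leaf and 21.8 in control leaf. The homologue of AT4G15920 (Cucsa.181790), which in Arabidopsis is the vacuolar fructose carrier SWEET17, was at 20.5 and 45.3 RPKM, 2.20-fold lower (counting interval 1.80 to 2.72). The heavy-metal-associated domain protein homologue of AT4G08570 (Cucsa.034560) was at 71.7 and 91.9 RPKM. The second major latex protein homologue, of AT1G14930 (Cucsa.174160), was at 22.8 and 33.6 RPKM.

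Grouped as nuclear were 2 of the 48, and other gene models with the same homologue stood next to each in the table. The B-box factor homologue of AT1G68520 was grouped with auxin and light response instead. The homologue of AT4G21530 (Cucsa.235730), subunit 4 of the anaphase-promoting complex, is 274 bases long and was at 43.2 RPKM in low nitrogen leaf and 20.2 RPKM in control leaf, 2.14-fold higher (counting interval 0.996 to 4.90), with a log2 ratio of 0.73 once centred on all genes. The adjacent model Cucsa.235720 was at 17.3 and 10.8 RPKM in low nitrogen and control leaf and at 13.7 and 15.3 RPKM in low nitrogen and control root. The DEAH-box RNA helicase homologue of AT2G35920 (Cucsa.241930) was at 35.6 and 24.2 RPKM in low nitrogen and control leaf, and its adjacent model Cucsa.241920 at 17.4 and 11.9 RPKM in leaf and 29.0 and 29.1 RPKM in root, low nitrogen first. Whether such neighbours are parts of 1 gene was not tested.

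The remaining genes, 6 of the 48, have homologues for which no role is given here. The homologue of AT3G06070 (Cucsa.385000, scaffold03904) was at 51.3 RPKM in low nitrogen leaf and 359.5 RPKM in control leaf, 7.0-fold lower (counting interval 5.50 to 9.04), the lowest ratio of the 48. The other 5 passed neither limit. They were the homologues of AT1G10657 described above, AT2G01755 (176 and 153 RPKM in low nitrogen and control leaf), AT1G65230 (73.0 and 69.9), AT1G13360 (22.9 and 26.4) and AT5G41761 (191 and 234).

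Other cucumber genes with the same homologue are described last. They are genes that missed the leaf or the root limit, so their organ levels are partly set by the choice and are given as a description. The 48 genes had 46 different homologues, and 22 of them shared 1 of 20 homologues with a total of 52 further cucumber genes. Of these 52, 36 had more than 0.5 RPKM in at least 1 root library and 25 had at most 5 RPKM in all 4 libraries. In both leaves 5 of the 52 reached 20 RPKM, and since a gene with root values at or below 0.5 RPKM would then have been among the 48, each of the 5 had a root value above that limit. In both roots 11 of the 52 reached 20 RPKM, spread over 9 homologues, and 6 of the 11 had at most 1 RPKM in both leaves. Genes with a shared homologue were 45.8% of the 48, against 37.7% of the other genes with a homologue and at least 20 RPKM in both leaves. Over all 17654 genes of the table with a homologue the share was 44.3%, close to that of the 48.

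Major latex proteins gave 4 of the 6 genes with such a root pattern. For AT5G28010, Cucsa.375440 was at 516 and 315 RPKM in low nitrogen and control leaf and 0 in both roots, while Cucsa.372150 was at 0 in both leaves and at 2637 RPKM in low nitrogen root and 2113 in control root. Another copy, Cucsa.012550, was at 0 in both leaves and at 26.5 RPKM in low nitrogen root and 103.3 in control root. For AT1G14930, Cucsa.009350 was at 441 RPKM in low nitrogen root and 375.5 in control root, and Cucsa.009360 at 58.8 and 102 RPKM, with at most 0.43 RPKM in a leaf.

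The other 2 were copies of AT3G51680 and AT3G26040. Cucsa.241510, with the homologue AT3G51680, was at 0 and 0.38 RPKM in low nitrogen and control leaf and at 34.3 and 40.3 RPKM in low nitrogen and control root, while Cucsa.319670 was seen in leaf alone. Cucsa.394770, with the homologue AT3G26040, was at 0.96 and 0.54 RPKM in low nitrogen and control leaf and at 46.5 and 52.8 RPKM in low nitrogen and control root. Some homologues had copies in both organs. The AT4G13010 copy Cucsa.078040, adjacent in the table to Cucsa.078060, was at 138 and 252 RPKM in low nitrogen and control leaf and at 61.0 and 38.8 RPKM in low nitrogen and control root. For AT2G47140, 4 gene models of scaffold01024 stood in a row, and next to Cucsa.128520 the copy Cucsa.128510 was at 22.8 and 7.66 RPKM in low nitrogen and control leaf and at 5.65 and 5.32 RPKM in low nitrogen and control root. For SWEET17, Cucsa.252960 was at 31.8 and 47.1 RPKM in low nitrogen and control leaf and at 26.2 and 48.4 RPKM in low nitrogen and control root.

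Of the 52 genes, 13 were at 0 in both roots. The highest of these in leaf were Cucsa.094530 (AT3G26040), at 9.79 RPKM in low nitrogen leaf and 22.3 RPKM in control leaf, Cucsa.043810 (AT1G75900), at 11.3 and 4.48 RPKM, and Cucsa.025190 (AT4G15630), at 4.60 and 5.58 RPKM.

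**Figure D5:**
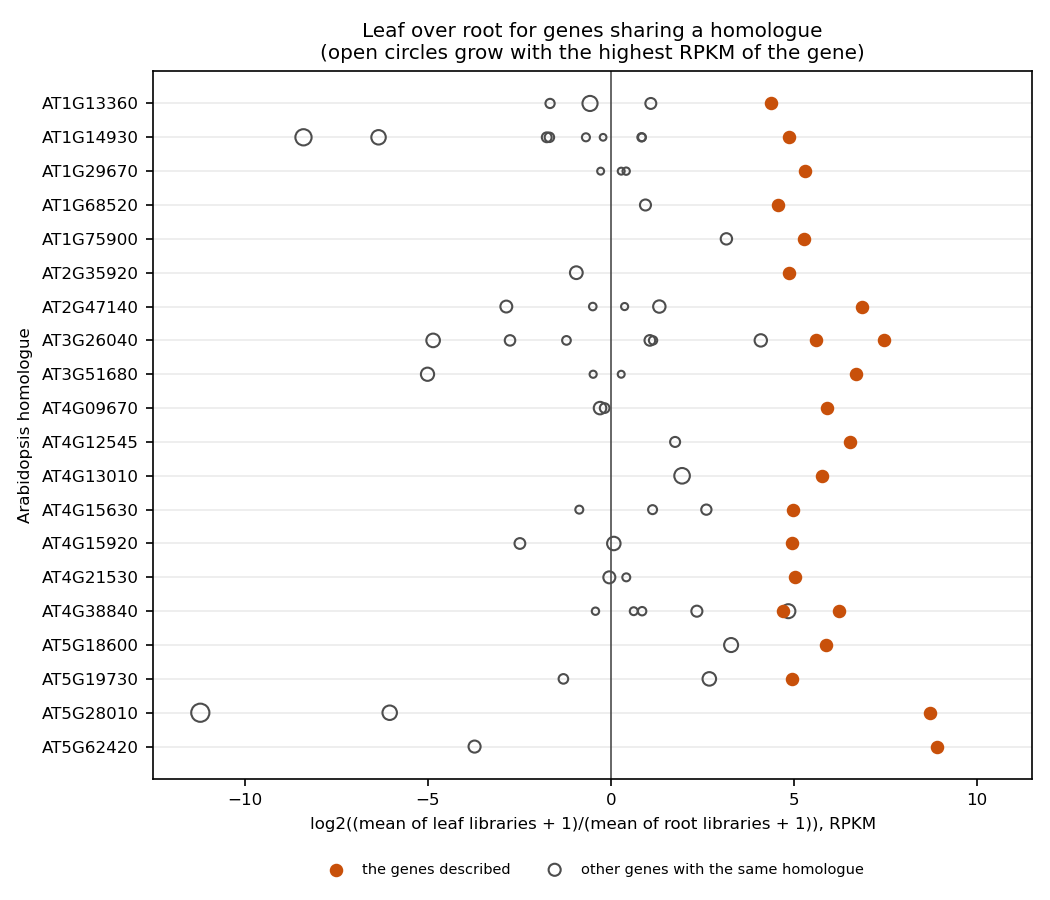
The log2 ratio of the mean of the leaf libraries over the mean of the root libraries (1 RPKM added to each mean) for the 22 genes of the 48 that share a homologue (filled) and the 52 other genes with the same 20 homologues (open, larger with the highest RPKM of the gene). The filled points lie to the right because leaf and root levels chose them, and the leftmost open circle is Cucsa.372150, at 2637 and 2113 RPKM in low nitrogen and control root.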

How the data were processed

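The authors deposited 1 table of RPKM values for 18665 genes in 4 libraries, each gene with its length, scaffold and homologue. Per the submitters' processing notes, Bowtie 0.12.9 was among the tools. The genome build and the treatment of reads matching several genes were not given in the sources used here. RefSeq's gene table (23999 genes) shared 0 IDs with the deposited table, so no sequence is printed. Ratios used a pseudocount of 1 RPKM, an absolute log2 limit of 1 and, for all genes, a mean of at least 1 RPKM. Sequencing depth came from the step size of low values (tolerance 0.00501 RPKM), and this step was checked on simulated data. Reads were taken at the deposited length for 8 of the 48 genes, and at the shortest length of at least 100 bases that gave whole numbers for 38, which gives the widest interval; such reads are not certain. Intervals are exact conditional (Clopper-Pearson) at 95% and, like floors of 3 reads, cover counting error only. The 48 genes and the lists were chosen with earlier results of these data known. The naming rule covered the 12 highest genes, the 8 highest and 8 lowest ratios, shared homologues and the 3 genes at each limit; the other genes were named after their values were seen. Python 3.11.15, pandas 2.3.3, NumPy 2.4.6 and SciPy 1.17.1 were used.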

Additional observations from a re-analysis of the deposited data

How the results depend on the processing

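As reported, 7 of the 48 genes were higher and 8 lower in low nitrogen leaf, with a median log2 ratio of 0.04. The count of higher genes was 2 when ratios were centred on the median of all genes, 2 with upper quartile scaling and 2 of 19 genes with a leaf limit of 50 RPKM. The count of lower genes was 13 of 70 with a leaf limit of 10 RPKM and 3 of 19 with a limit of 50 RPKM. The median turned negative in 6 settings. It was -0.29 when centred, -0.23 with upper quartile scaling, -0.042 with equal sums without the 20 highest genes, -0.047 with a root limit of 0.2 RPKM, -0.11 with a leaf limit of 10 RPKM and -0.10 without genes under 500 bases, an alternative chosen after seeing the data. Which cause lay behind these moves was not tested, except that the limits change which genes are counted. Pseudocounts of 0.1 and 5 RPKM, equal RPKM sums, a root limit of 1 RPKM and summed homologues kept both counts within 1.5 times and the median within 0.1; a 1.5-fold limit gave 10 higher and 11 lower. Over all genes compared, 1109 were higher and 290 lower with a mean of at least 5 RPKM, against 1816 and 481. No paired analysis was possible because each group has 1 library. The depth of the leaf libraries leaves wide intervals for the shortest genes.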

Other observations

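Some of the 48 genes stood near each other on scaffolds that recur as sets of the same homologues, a pattern noticed after the values were seen. Each of the 3 scaffolds with a homologue of AT4G15630, a Casparian strip membrane protein relative, also held CC-type glutaredoxin homologues, within stretches of 5 to 11 rows of the table. Such homologues were on 10 of the 669 scaffolds. On scaffold02229 these included the glutaredoxin Cucsa.253440 and the AT4G15630 homologue Cucsa.253540 of the 48, 10 rows apart, and Cucsa.253530, a further AT4G15630 homologue with 2.40 RPKM in low nitrogen leaf and 0 in the other libraries. On scaffold01196 the AT4G15630 homologue was at 0 in both leaves and at 0.47 and 1.17 RPKM in low nitrogen and control root. On scaffold00345 it was at 4.60 and 5.58 RPKM in low nitrogen and control leaf and at 0 in both roots.

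Homologues of AT1G68520 and AT1G13360 likewise stood together on both scaffolds that held an AT1G68520 homologue. On scaffold03611 both are among the 48 (Cucsa.365300 and Cucsa.365350). On scaffold02653 Cucsa.283570 was at 9.08 and 7.13 RPKM in low nitrogen and control leaf and at 3.45 and 4.02 RPKM in low nitrogen and control root. Its AT1G13360 neighbour Cucsa.283650 was at 133 and 97.0 RPKM in low nitrogen and control leaf and at 171 and 172 RPKM in low nitrogen and control root.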
